A study of Bos taurus with 9 samples.

Results

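The TRIM genes are a family named for the tripartite motif, a RING finger, B-box zinc fingers and a coiled coil set one after the other, and most of them encode E3 ubiquitin ligases. Rows whose gene symbol is TRIM followed by a number were taken, which gave 51 of the 17162 genes of the table. They were measured by RNA-seq in bovine endometrial cells (BEND), cultured from the uteri of Holstein cows and labelled as wild-type primary epithelial cells, in 3 libraries of each of 3 groups. CON cells were untreated, GA cells received 1 nM E2 (estradiol) and 100 nM P4 (progesterone), and GB cells were kept in these hormones for 12 h before 100 ng/mL IFNT was given over a further 12 h. IFNT (interferon tau) is the type I interferon by which the ruminant conceptus signals its presence to the uterus. When CON and GA cells were collected is not stated separately, so in both GB comparisons IFNT and time in culture cannot be told apart, nor in GB vs. GA IFNT and the length of hormone exposure. GB vs. CON also differs by E2 and P4, so from that comparison alone IFNT and the hormones cannot be told apart. A change to fresh medium is described only for the cells to be treated. The methods call the replicates biological but do not say whether they came from separate cows or cultures, and the p-values measure the spread between these libraries, which may be technical. In bulk RNA, fewer cells of a type and less RNA per cell cannot be told apart.

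TRIM proteins recognise their targets through the part that follows the coiled coil. In the largest class this is a SPRY domain, as in TRIM5, which binds retroviral capsids, TRIM21, a cytosolic antibody receptor, and TRIM25, which ubiquitinates the RNA sensor RIG-I. Other classes carry a plant homeodomain and bromodomain that read histones, NHL repeats, or a COS box that binds microtubules. Many members act in antiviral defence, several genes of the family are induced by type I interferon in other cells, and the products of others are chromatin regulators, muscle proteins or regulators of the cytoskeleton.

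The label of the cells was set against the RNA levels of cell type markers, and these went against it. The study identified the cells by immunofluorescence for cytokeratin, a protein measure that was not analysed here. All 8 epithelial markers, among them KRT8, KRT18 and CDH1, stayed at or under 0.700 FPKM in every library, while the 8 stromal fibroblast markers had mean levels of 242 to 8539 FPKM. Summed over the stromal markers, CON libraries held 16642 to 17220 FPKM, GA libraries 16824 to 17208 and GB libraries 15041 to 15152. The 7 immune markers summed to 40.8 to 50.5 FPKM over the libraries. Of the 5 of them that were tested, 1, CD163, was called higher in GB (2.32 FPKM in CON and 9.23 in GB). With 2.94% and 2.66% of all tested genes called higher against CON and GA, a count of 1 of 5 says little. The 5 endothelial markers summed to 1.57 to 3.44 FPKM. The part of these markers in the results was not tested. Pearson's r of log2(FPKM + 0.5) was 0.989 to 0.991 between libraries of a group and 0.955 to 0.959 between GB and the other libraries.

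Levels are given as FPKM, in which fragments are divided by exon length and by the mapped reads of the library, so that genes can be compared per length. Group differences (log2FC) were tested with limma on log2(FPKM + 0.5) across the 12578 genes with a mean of at least 0.5 FPKM, and this scale understates the change of low genes. Following the study's thresholds, a called gene has an absolute log2FC over 1 and a p below 0.05 after Benjamini-Hochberg adjustment. Of the 51 TRIM genes, 36 passed the filter. In CON, 33 had a mean of at least 1 FPKM and 22 of at least 10.

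In the untreated cells the chromatin regulator TRIM28, the corepressor of KRAB zinc finger proteins, was the most abundant member. It stood at 232, 230 and 227 FPKM in CON, 236, 234 and 240 in GA, and 221, 218 and 218 in GB. It made up 23.9% ± 0.836 (SD, n = 3) of the summed TRIM FPKM in CON. TRIM8, a regulator of NF-kappaB and STAT signaling, followed at 81.2 ± 1.57 FPKM (SD, n = 3), and TRIM2, a ligase with NHL repeats, at 79.9 ± 2.45. The libraries of these 2 genes overlapped in CON, so their order is not separated. TRIM37, a ligase of peroxisomes and centrosomes, came next at 58.9 ± 1.04 FPKM, then TRIM25 at 48.2 ± 2.44. The CON libraries of TRIM25 overlapped those of TRIM31, at 48.0 ± 6.15, so the place of TRIM25 as number 5 is not separated either.

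**Figure D1:**
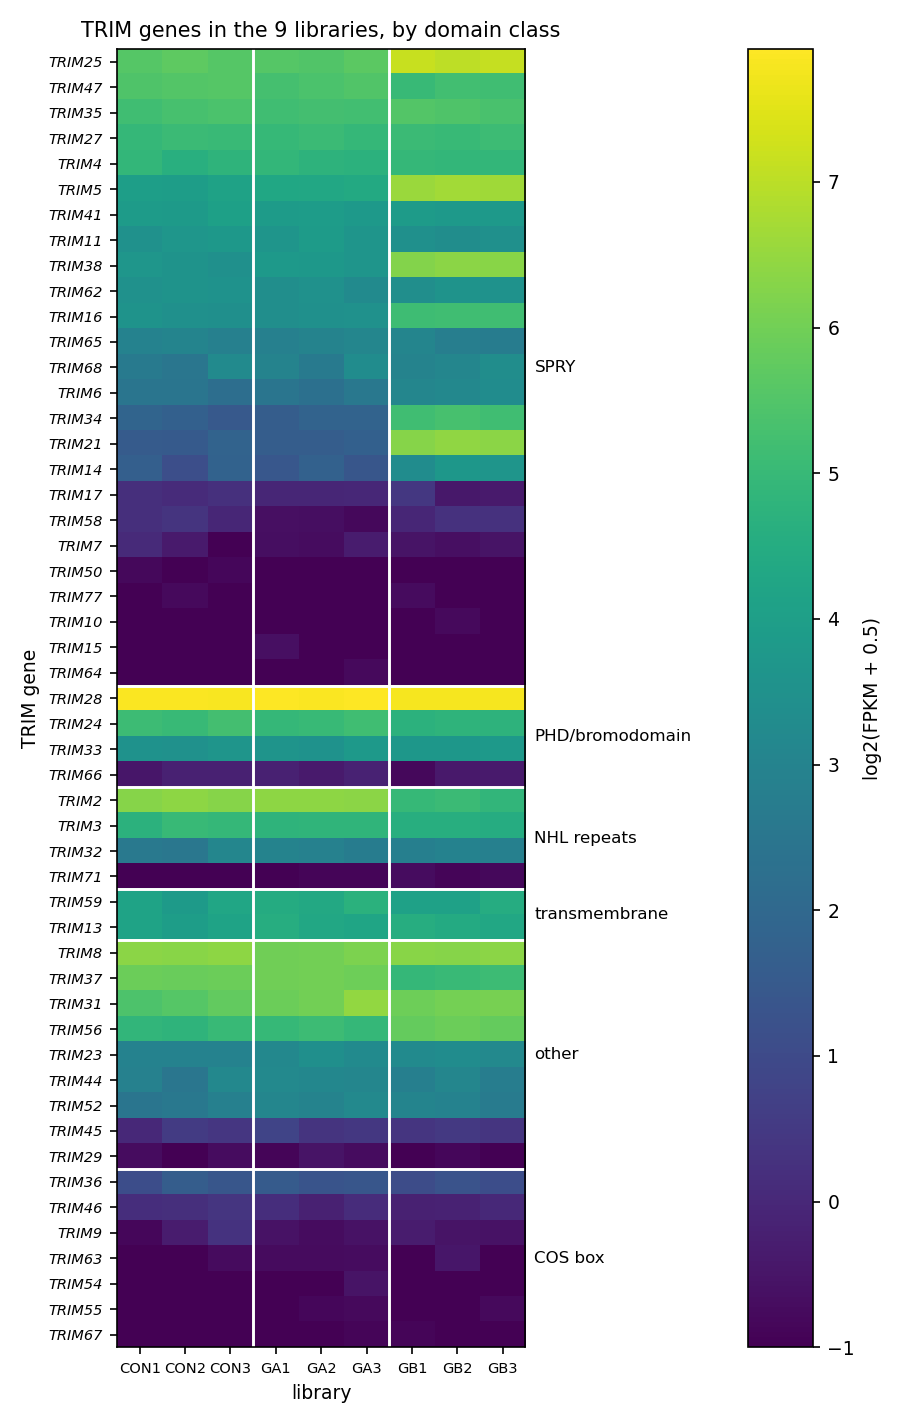
Heatmap of log2(FPKM + 0.5) of the 51 TRIM genes (rows, grouped by domain class and ordered by their CON level) in the 9 libraries (columns, CON1 to GB3). TRIM28 is the brightest row in every library, the SPRY rows TRIM25, TRIM5, TRIM38, TRIM16, TRIM34, TRIM21 and TRIM14 brighten in the 3 GB columns, TRIM2 and TRIM37 darken there, and the rows of the 15 genes that did not pass the filter stay dark.

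In the IFNT-treated cells 7 TRIM genes were higher and 1 was lower past both thresholds. CON libraries had a summed TRIM FPKM of 961 ± 24.2 (SD, n = 3), GA libraries one of 995 ± 27.8, and GB libraries one of 1299 ± 15.6. The same 8 genes were called against CON and against GA, and these comparisons share the GB libraries. The 7 are 19.4% of the 36 tested TRIM genes, where 2.94% of all tested genes were called higher against CON and 2.66% against GA. The 1 lower gene is 2.78%, where 1.07% and 0.978% of all tested genes were called lower. The median log2FC of the tested TRIM genes was 0.13 against CON and −0.0034 against GA, against −0.016 and −0.075 over all tested genes. Counted without a fold threshold, GB libraries lay above all CON libraries in 13 members and below them in 8, where this held for 22.2% and 23.9% of all tested genes. Against GA the counts were 11 and 8, where the shares of all genes were 15.7% and 31%. An unadjusted p under 0.05 was reached by 18 of the 36 members in each of these comparisons, where 43.8% and 40% of all tested genes reached it.

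TRIM21 had the largest log2FC of the family. Its product binds antibody-coated virus that has entered the cell and sends it to the proteasome. TRIM21 was at 2.48, 2.37 and 3.07 FPKM in CON, at 2.58, 2.56 and 2.81 in GA, and at 78.4, 85.1 and 81.1 in GB. The mean in GB was 30.9 times that in CON, with a log2FC of 4.71 (SE 0.094, adjusted p = 6.3e-10). This log2FC was number 49 from the top of all 12578 tested genes. In GB vs. GA it was 4.70 (SE 0.094, adjusted p = 6.4e-10), and the GB libraries lay far above all others.

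TRIM34, a close relative of TRIM5, was at 3.19, 2.81 and 2.29 FPKM in CON, at 2.59, 3.10 and 3.06 in GA, and at 35.4, 39.3 and 35.4 in GB. Its mean in GB was 13.3 times that in CON, with a log2FC of 3.52 (SE 0.12, adjusted p = 2.1e-08) and one of 3.45 in GB vs. GA. TRIM5 itself, the retroviral restriction factor, was at 15.3, 15.1 and 17.02 FPKM in CON, at 19.5, 19.6 and 21.0 in GA, and at 94.84, 100.75 and 100.25 in GB. Its mean in GB was 6.24 times that in CON. The log2FC was 2.60 (SE 0.062, adjusted p = 1.8e-09) against CON and 2.27 against GA, and its 3 groups did not overlap.

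TRIM38, which tunes toll-like receptor and cytosolic DNA signaling, was at 12.3, 11.3 and 10.7 FPKM in CON, at 13.6, 12.99 and 12.0 in GA, and at 75.4, 81.9 and 79.6 in GB. Its mean in GB was 6.90 times that in CON, a log2FC of 2.74 (SE 0.073, adjusted p = 3.9e-09), and the log2FC in GB vs. GA was 2.57. TRIM38 and TRIM21 thus reached levels in GB that overlap between libraries, from starting levels in CON of 11.4 ± 0.852 and 2.64 ± 0.376 FPKM (SD, n = 3).

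TRIM14, a SPRY protein without a RING finger that works as an adaptor of the RIG-I pathway at mitochondria, was the least abundant of the called genes. It was at 2.75, 1.71 and 3.02 FPKM in CON, at 2.18, 2.94 and 2.09 in GA, and at 9.65, 12.7 and 12.0 in GB. Its log2FC in GB vs. CON was 2.02 with the widest SE of the 8 called genes (SE 0.20, adjusted p = 6.2e-05), and it was 2.05 in GB vs. GA.

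TRIM16, also a SPRY protein without a RING finger and known from the clearance of damaged lysosomes, was at 11.3, 10.7 and 10.5 FPKM in CON, at 10.1, 10.6 and 10.8 in GA, and at 34.5, 36.1 and 36.0 in GB. Its mean in GB was 3.28 times that in CON (log2FC 1.67, SE 0.059, adjusted p = 3.7e-08). TRIM25, which attaches ubiquitin to RIG-I and ISG15 to other proteins, was already abundant in CON at 46.5, 51.0 and 47.1 FPKM, was at 46.3, 44.8 and 50.0 in GA, and at 142, 129 and 139 in GB. Its fold was the smallest of the 7 risers (2.84 times, log2FC 1.49, SE 0.061, adjusted p = 1.0e-07), while the gain in FPKM was the largest of them, and in GB only TRIM28 stood higher in the family.

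TRIM2 was the called gene that fell. Its product is best known as a ligase of neurons that acts on neurofilament. TRIM2 was at 78.3, 82.8 and 78.7 FPKM in CON, at 83.0, 84.2 and 82.1 in GA, and at 30.6, 33.1 and 28.8 in GB. The mean in CON was 2.59 times that in GB, with a log2FC of −1.36 (SE 0.056, adjusted p = 1.1e-07) against CON and −1.42 (adjusted p = 8.4e-08) against GA. By mean level TRIM2 was number 3 of the family in CON and number 15 in GB.

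**Figure D2:**
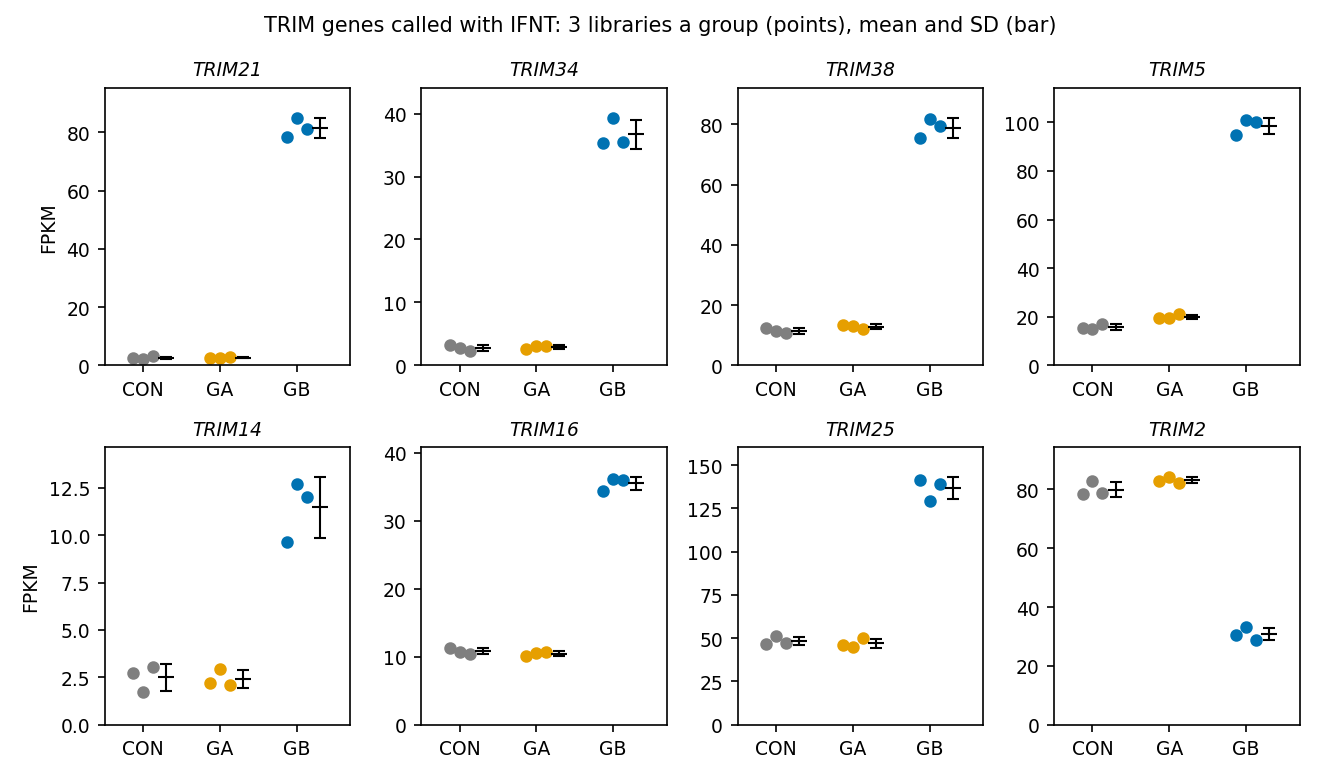
FPKM of the 8 called TRIM genes (y axis, linear from 0) in CON, GA and GB, with 3 libraries a group as points and the mean with SD as a bar beside them. For TRIM21, TRIM34, TRIM38, TRIM5, TRIM14, TRIM16 and TRIM25 the 3 GB points lie above all 6 others, and for TRIM2 they lie below.

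TRIM56 and TRIM6 passed the adjusted p in both GB comparisons and stayed under the fold threshold. TRIM56, a ligase that acts on double-stranded RNA and STING signaling, was at 28.6, 27.2 and 31.7 FPKM in CON, at 30.7, 33.7 and 29.8 in GA, and at 54.8, 59.4 and 55.9 in GB. Its log2FC was 0.95 in GB vs. CON (95% interval 0.79 to 1.11, adjusted p = 1.1e-05) and 0.84 against GA (adjusted p = 2.9e-05). TRIM6, which makes the free ubiquitin chains that activate IKBKE, was at 4.98, 5.07 and 4.17 FPKM in CON, at 4.96, 4.35 and 5.48 in GA, and at 8.04, 8.54 and 9.55 in GB. Its log2FC was 0.81 (SE 0.12, adjusted p = 6.9e-04) and 0.76 (adjusted p = 0.00113). For both genes every GB library was above all others. Without CON3, TRIM56 was called against CON (log2FC 1.01), and with library GC content as a covariate TRIM6 no longer passed there (adjusted p = 0.0741 in limma). The intervals of both reach past 1 in GB vs. CON, so they are not separated from a change of that size.

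TRIM37 was lower in GB by nearly as much. It was at 59.3, 57.7 and 59.7 FPKM in CON, at 62.7, 64.0 and 61.7 in GA, and at 30.4, 32.2 and 33.6 in GB, with a log2FC of −0.87 (SE 0.049, adjusted p = 1.3e-06) against CON and −0.96 (adjusted p = 5.9e-07) against GA. Both TRIM2 and TRIM37 were among the 5 most abundant members in CON.

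Without the fold threshold, 12 TRIM genes were higher and 5 lower in GB vs. CON at an adjusted p under 0.05, where 16.2% of all tested genes were higher and 17.3% lower. In GB vs. GA the counts were 11 and 7, where 9.87% and 19.2% of all tested genes were higher and lower. The lower members made up 13.9% and 19.4% of the 36. The members that were lower in both comparisons besides TRIM2 and TRIM37 were TRIM24, TRIM47 and TRIM3. TRIM24, a histone-reading coregulator of nuclear receptors, was at 34.1 ± 2.93 FPKM (SD, n = 3) in CON and 26.6 ± 0.595 in GB (log2FC −0.35, adjusted p = 0.00813). TRIM47, a SPRY ligase, was at 45.2 ± 1.59 and 34.6 ± 2.61 (log2FC −0.38, adjusted p = 0.00323). TRIM3, the NHL relative of TRIM2, was at 29.2 ± 2.69 and 23.2 ± 0.686 (log2FC −0.33, adjusted p = 0.00635). In GB vs. GA these 3 had log2FC of −0.28, −0.26 and −0.26, and there their adjusted p rose above 0.05 in some of the alternatives.

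**Figure D3:**
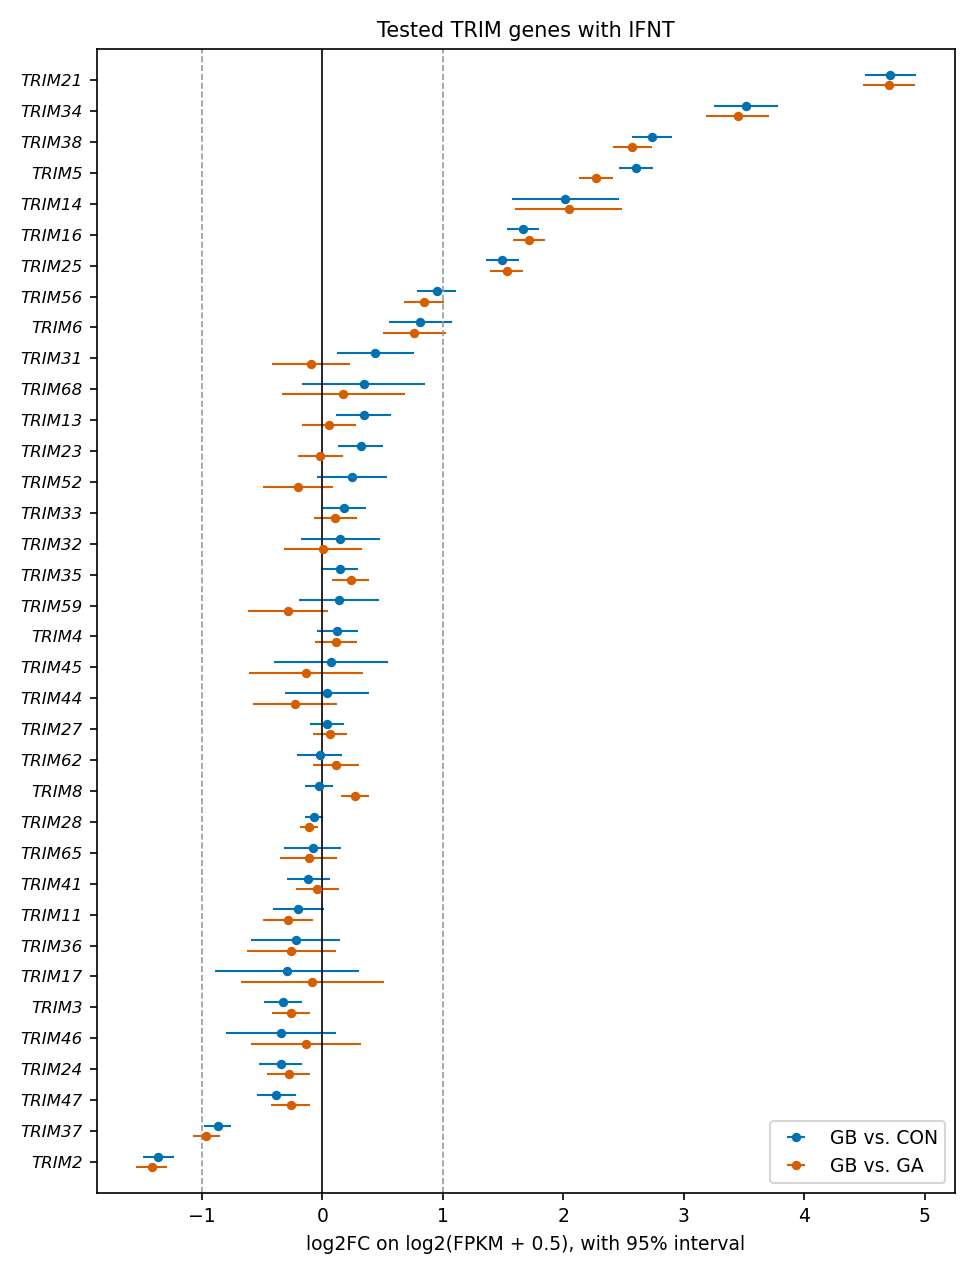
log2FC of the 36 tested TRIM genes (x axis, on log2(FPKM + 0.5), with 95% intervals) in GB vs. CON (blue) and GB vs. GA (orange), ordered by GB vs. CON. The dashed lines mark the threshold of 1 on either side of 0. From TRIM21 at 4.71 to TRIM25 at 1.49 there are 7 genes right of the threshold, TRIM56 and TRIM6 lie just inside it, and TRIM2 at −1.36 is the only gene left of it.

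All 7 risers carry a SPRY domain, a class with 18 of its 25 members tested. None of the 18 was called lower, though without the fold threshold TRIM47 was lower in both GB comparisons and TRIM11 in GB vs. GA. Of the NHL class, 3 of 4 members were tested and TRIM2 was called lower, while TRIM32 was not. None of the 3 tested members with a plant homeodomain and bromodomain (TRIM24, TRIM28 and TRIM33), none of the 2 transmembrane members (TRIM13 and TRIM59), none of the 2 tested COS box members (TRIM36 and TRIM46) and none of the 8 tested others was called. Without the fold threshold, changes were also seen outside the SPRY class. TRIM56, of the others, was higher in both GB comparisons. TRIM37, also of the others, TRIM24 and the NHL member TRIM3 were lower in both. TRIM8, TRIM13, TRIM23, TRIM28 and TRIM31 passed the adjusted p in only 1 of them. With 2.94% of all tested genes called higher and 1.07% lower in GB vs. CON, counts of 0 in classes of this size are near the share of all genes. The difference between classes was not tested.

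A list of members known for antiviral restriction or innate sensing held 15 of the 51 genes, 14 of them tested, and was drawn up with the names of genes called by the study already seen. It leaves out uncalled members with a part in immune signaling, such as TRIM8 and TRIM68, so its counts and medians are no independent evidence. Of the 14, 6 were called higher and none lower in GB vs. CON, and 11 were higher at an adjusted p under 0.05. Of all tested genes 2.94% were called higher, 1.07% were called lower and 16.2% were higher at that adjusted p. None lower among 14 is thus near the share of all genes. In GB vs. GA 6 were called higher and 8 were higher at an adjusted p under 0.05, where 2.66% and 9.87% of all tested genes were. The median log2FC of the 14 was 0.88 against CON and 0.80 against GA. The 22 tested members outside the list had medians of −0.048 and −0.13, with TRIM16 called higher and TRIM2 lower. Not every antiviral member rose. TRIM27, a ligase of the NF-kappaB and interferon pathways, was at 32.0 ± 1.56 FPKM (SD, n = 3) in CON and 32.9 ± 1.24 in GB, with a log2FC of 0.037 (95% interval −0.10 to 0.18). TRIM65, which ubiquitinates the RNA sensor IFIH1, had a log2FC of −0.080 (95% interval −0.32 to 0.16) and TRIM32 one of 0.15 (−0.17 to 0.48). For these genes a change of the size seen in TRIM25 is outside the interval.

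TRIM5 and TRIM34 were called, as were neighbouring genes described as TRIM5, though LOC786870 and LOC516599 among these passed the filter only through GB. In the RefSeq gene order LOC616948, LOC786870, TRIM5, LOC516599 and TRIM34 follow each other, and TRIM6 is separated from TRIM34 by OR52B4. These 3 LOC genes carry no TRIM symbol and so are not among the 51, but the table describes them as TRIM5 or TRIM5-like proteins, and they were looked at after their values were seen. LOC616948 was at 9.34, 9.32 and 10.7 FPKM in CON, at 10.0, 11.0 and 7.73 in GA, and at 67.0, 70.3 and 73.7 in GB (log2FC 2.78 in GB vs. CON, SE 0.12, adjusted p = 1.3e-07). LOC516599 was at 0.220, 0.150 and 0 FPKM in CON, at 0.210, 0.200 and 0.150 in GA, and at 4.51, 5.67 and 6.29 in GB (log2FC 3.27, SE 0.21, adjusted p = 2.9e-06). LOC786870 was at 1.02 to 1.41 FPKM in GB and at most 0.460 in the other libraries (log2FC 1.30, SE 0.29, adjusted p = 0.00844).

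The 5 genes from LOC616948 to TRIM34 were each called higher in both GB comparisons, while TRIM6 passed only the adjusted p. LOC786870 (means of 0.227 FPKM in CON and 0.197 in GA) and LOC516599 (0.123 and 0.187) passed the filter of 0.5 FPKM only through GB. They could thus hardly be tested without being higher there, and their calls add little to this run of genes. The call of LOC786870 was lost with a pseudocount of 1 (log2FC 0.88) and with library GC content as a covariate (log2FC 0.51, adjusted p = 0.579). It passed the filter, and so was tested, in only 16 of the 20 alternatives. Reads that fit several of these copies are divided among them by the authors' counting, so the level of each single copy is uncertain. TRIM21 and TRIM68, a regulator of type I interferon production, both lie among olfactory receptor genes in the same order, and TRIM68 was at 6.70 ± 2.08 FPKM (SD, n = 3) in CON and 8.47 ± 1.27 in GB (log2FC 0.35, adjusted p = 0.273), with overlapping libraries.

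**Figure D4:**
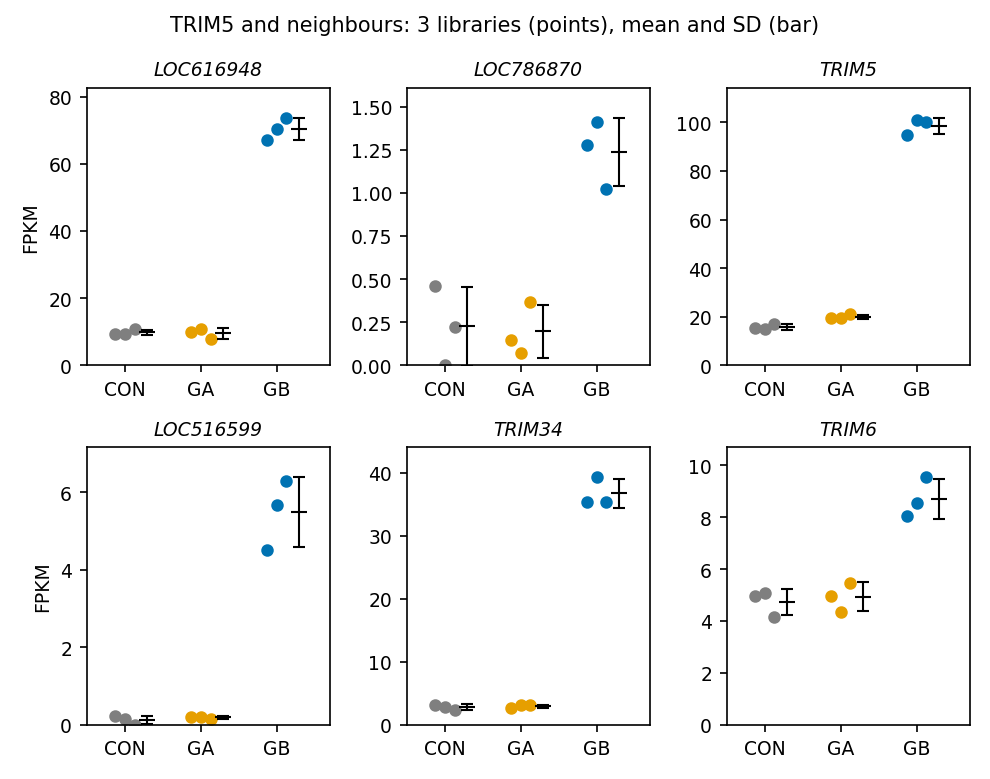
FPKM (y axes, linear from 0) of TRIM5, TRIM34, TRIM6 and the 3 LOC genes described as TRIM5, in CON, GA and GB, with libraries as points and the mean with SD as a bar. In each panel the 3 GB points lie above the 6 others, with GB means from 1.24 FPKM in LOC786870 to 98.6 in TRIM5.

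Besides these, LOC785873, described as TRIM26, a ligase encoded in the MHC region, was at 18.3 ± 1.88 FPKM (SD, n = 3) in CON and 31.9 ± 0.387 in GB (log2FC 0.79, SE 0.099, adjusted p = 3.3e-04), and with library GC content as a covariate its adjusted p in limma was 0.0602. LOC615278, described as TRIM39, was at 7.62 ± 1.05 and 7.60 ± 0.763 FPKM (log2FC 6.8e-04, 95% interval −0.29 to 0.29). Of the 10 genes described in this way without a TRIM symbol, the other 5 did not pass the filter on low values. Among them LOC782527, described as TRIM5-like, stood at 0 in every CON library, at 0, 0 and 0.380 FPKM in GA, and at 0.170, 0.210 and 1.80 FPKM in GB.

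No TRIM gene was called in cells given the hormones alone. In GA vs. CON limma called 0 of the 36, where 0.0318% of all tested genes were called higher and 0.0398% lower, and none had an adjusted p under 0.05, while 7 had an unadjusted p under 0.05, where 19.3% of all tested genes did. GA libraries lay above all CON libraries in 8 members and below them in 2, where the shares of all genes were 18.6% and 6.13%. The 95% interval of all 36 log2FC stayed within 1 on either side of 0. The smallest adjusted p was that of TRIM8, at 80.9, 79.8 and 82.9 FPKM in CON, at 62.6, 64.7 and 71.0 in GA, and at 79.1, 78.6 and 81.5 in GB. Its GA libraries lay below all others, with a log2FC of −0.30 (SE 0.053, adjusted p = 0.0545) in GA vs. CON, while GB vs. GA gave 0.27 (adjusted p = 0.00461) and GB vs. CON gave −0.026.

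TRIM5 followed with a log2FC of 0.33 (SE 0.062, adjusted p = 0.0614) in GA vs. CON, and TRIM23, a ligase with a GTPase domain, with 0.34 (SE 0.083, adjusted p = 0.101). TRIM23 was at 7.23, 7.18 and 7.22 FPKM in CON, at 8.51, 10.3 and 8.99 in GA, and at 9.08, 9.60 and 8.71 in GB. TRIM23, TRIM13 and TRIM31 were higher in GB vs. CON at an adjusted p under 0.05 but not in GB vs. GA. TRIM31, a ligase that promotes aggregation of MAVS, was at 42.6, 46.6 and 54.7 FPKM in CON, at 59.5, 63.5 and 88.3 in GA, and at 61.3, 65.8 and 68.0 in GB. Its GB and GA libraries overlapped and both lay above CON (log2FC 0.44 in GB vs. CON, adjusted p = 0.0397, and 0.54 in GA vs. CON, adjusted p = 0.115). TRIM13, a ligase of the endoplasmic reticulum, was at 17.6, 15.0 and 17.3 FPKM in CON, at 23.2, 20.0 and 18.2 in GA, and at 22.8, 21.2 and 19.8 in GB (log2FC 0.34 in GB vs. CON, adjusted p = 0.0274). With GC content as a covariate none of TRIM23, TRIM13 and TRIM31 passed in GB vs. CON. Over the 20 alternatives TRIM31 passed there in 12, TRIM13 in 15 and TRIM23 in 18.

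TRIM58, a ligase of maturing red blood cells, was under the filter at a mean of 0.457 FPKM but was lowest in GA, as TRIM8 was. It was at 0.640, 0.780 and 0.480 FPKM in CON, at 0.140, 0.130 and 0.0700 in GA, and at 0.470, 0.700 and 0.700 in GB. In the fit without a filter its log2FC was −0.88 (SE 0.13, adjusted p = 0.0638) in GA vs. CON, while GB vs. GA gave 0.87 (adjusted p = 0.00249). At these levels the values rest on few reads. TRIM52 was at 5.80 ± 0.947 FPKM (SD, n = 3) in CON and 8.03 ± 0.576 in GA (log2FC 0.45, adjusted p = 0.132).

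**Figure D5:**
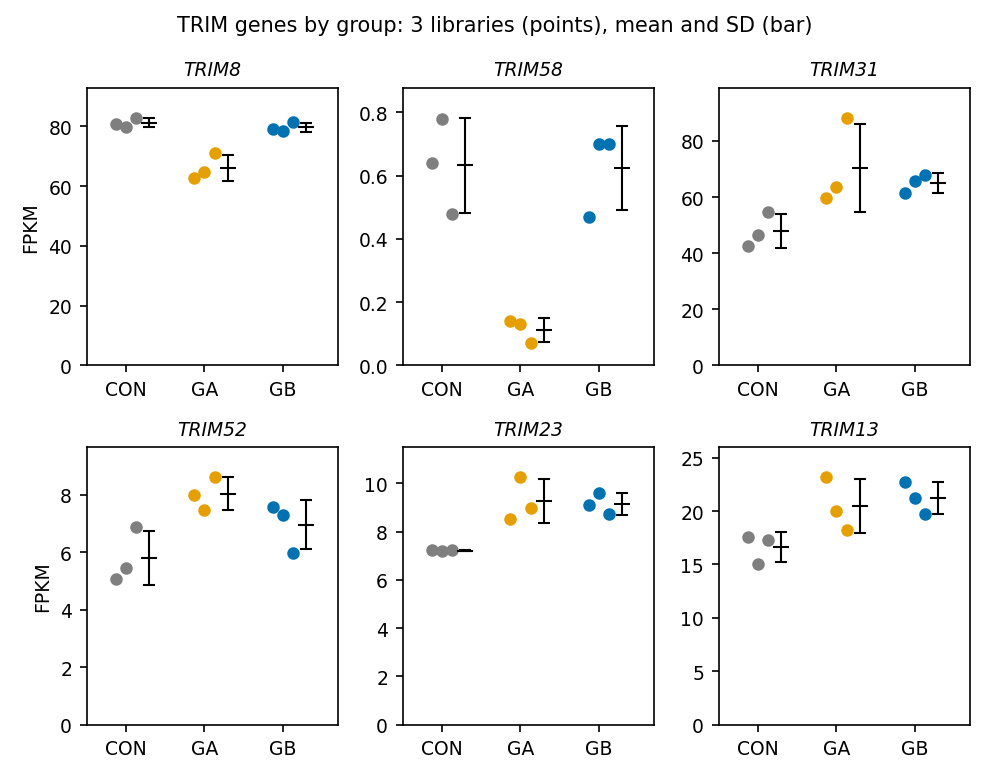
FPKM (y axes, linear from 0) of TRIM8, TRIM58, TRIM31, TRIM52, TRIM23 and TRIM13 in CON, GA and GB, with libraries as points and the mean with SD as a bar. The 3 GA points of TRIM8 and TRIM58 lie below those of the other groups, and the GA points of TRIM31, TRIM52, TRIM23 and TRIM13 lie above all 3 CON points.

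In 15 of the 36 tested members neither GB comparison had an adjusted p under 0.05, and in 12 members both 95% intervals stayed within 0.5 on either side of 0. TRIM27, TRIM4 and TRIM41 were among the members that passed in neither. TRIM4, a SPRY ligase, was at 29.6, 24.4 and 27.5 FPKM in CON, at 29.3, 26.7 and 26.0 in GA, and at 30.1, 29.2 and 29.5 in GB. TRIM41, a SPRY ligase, had a log2FC of −0.11 (95% interval −0.29 to 0.062) in GB vs. CON. The fall of TRIM28 in GB vs. GA was small (log2FC −0.11, adjusted p = 0.0334) and lay close to the median of all genes. It was −0.035 (adjusted p = 0.522) with median-of-ratios factors. TRIM11, also lower in GB vs. GA (log2FC −0.28, adjusted p = 0.0480), and TRIM35, higher there (log2FC 0.24, adjusted p = 0.0303), were lost with several alternatives, and neither passed in GB vs. CON.

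The 15 members under the filter had low values or none. Of these, 8 were listed at 0 in at least 6 of the 9 libraries (TRIM10, TRIM15, TRIM50, TRIM54, TRIM55, TRIM64, TRIM67 and TRIM77), and 11 never reached 0.25 FPKM. The muscle ligases TRIM54, TRIM55 and TRIM63 had highest values of 0.200, 0.0800 and 0.230 FPKM. TRIM71, an NHL protein of early embryos and stem cells, was at most at 0.110 FPKM, and TRIM29, a gene of squamous epithelia, at most at 0.200. TRIM9, TRIM66, TRIM7 and TRIM58 reached 0.740, 0.400, 0.540 and 0.780 FPKM. With no filter on low values, no TRIM gene beyond the 8 was called in any comparison. A value of 0 here means under the 2 decimals of the table, and no limit on expression can be given because the table holds no counts.

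Genes of the pathways in which these ligases work were counted from lists drawn up by hand, with earlier results of these data known. The study itself names IFIH1 and DHX58 among its candidate genes, so these counts are no independent evidence. Unless named otherwise, levels and log2FC of single genes here and in the next paragraph compare GB with CON. Of 20 genes of the RIG-I and cytosolic sensor pathway, 6 were called higher and none lower in both GB comparisons. Of all tested genes 2.94% and 2.66% were called higher and 1.07% and 0.978% lower, so none lower among 20 is near the share of all genes. Among the 6 called genes DDX58, which encodes RIG-I, the target of TRIM25, rose from 3.82 to 180 FPKM (log2FC 5.40). The DNA sensor CGAS, a partner of TRIM38 and TRIM14, rose from 6.53 to 62.4 (log2FC 3.19). IFIH1, the substrate of TRIM65, rose from 0.460 to 172 FPKM (log2FC 7.49), and with 0.513 FPKM in GA it lay near the filter of 0.5 FPKM outside GB. DHX58, a relative of RIG-I, had a log2FC of 5.89, and the transcription factors IRF7 and IRF3 had 2.59 and 1.34. MAVS, the adaptor to which TRIM14 and TRIM31 are recruited, was not called (log2FC 0.12, adjusted p = 0.263), nor was RNF135, another ligase of RIG-I (log2FC 0.68, adjusted p = 3.1e-04).

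Of 15 E2 enzymes and deubiquitinases that work with TRIM ligases, 1 was called higher, UBE2L6, the ISG15-conjugating enzyme paired with TRIM25, at a log2FC of 3.57 (12.9 to 156 FPKM). This is 6.67% of the list, where 2.94% of all tested genes were called higher, and 1 gene of 15 is near that share. USP7 had a log2FC of −0.55 (adjusted p = 1.5e-05) and was not called. STAT2 and IRF9, transcription factors of the type I interferon response, had log2FC of 1.85 and 2.15 in GB vs. CON, and both were called. A list of relatives that have no TRIM symbol also held genes described only as SPRY domain proteins. Its 8 tested genes were PML, MID1, MID2, FSD1, FSD1L, SPRYD3, SPRYD4 and SPRYD7. Of these 8, 1 was called, PML, also known as a TRIM protein and the organiser of nuclear bodies. PML was at 18.1 FPKM in CON and 178 in GB (log2FC 3.27, adjusted p = 1.4e-10). As 1 of 8 genes, or 12.5%, this count too says little against the 2.94% of all tested genes. MID1, a microtubule-bound relative, had a log2FC of 0.23 in GB vs. CON (adjusted p = 0.0216) and of 0.18 in GB vs. GA (adjusted p = 0.0696).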

How the data were processed

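Poly-A RNA of 9 libraries was sequenced with a directional kit. Per the submitters' processing notes and the methods, the authors used fastp 0.21.0, Bowtie2 2.33 (rRNA removal), HISAT2 2.2.1 on the ARS-UCD1.2 genome and RSEM 1.3.3. FPKM for each gene in each library, to 2 decimals, are what the authors deposited. Neither the annotation release nor the use of strand is given in the sources used here. Without counts in the table, no counting error could be computed. Summed FPKM was 1395620 to 1442720.

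In R 4.3.3, limma 3.58.1 estimated the 3 group means from log2(FPKM + 0.5) of all libraries together, with a variance trend, for genes with a mean of at least 0.5 FPKM. The study's own count test cannot be run on FPKM. An exact permutation test of 3 against 3 libraries cannot give a p under 0.1. The procedure was tested on simulated data. Plots used Python 3.11.15 with matplotlib 3.10.9.

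The members and lists were chosen with earlier results of these data known. Values in every library are given for the called members, the 3 uncalled members of lowest adjusted p in each comparison and the 5 most abundant in CON. Others given that way (TRIM4, TRIM13, TRIM31, TRIM58 and the LOC genes) were chosen after their values were seen. RefSeq gene order is from another build, ARS-UCD2.0, so no coordinates are given. Promoter and protein sequences were not analysed here, and 1 listed pathway gene is not reported here.

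Settings tried instead were pseudocounts of 1 and 0.1, a filter at 1 FPKM or none, equal sums, median-of-ratios factors, quantile normalization, no variance trend, a fit to the compared groups alone, a replicate block, and omission of single libraries. Library GC content as a covariate was added after seeing the data, and is taken from the study's sequencing summary, not from the deposited table.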

Additional observations from a re-analysis of the deposited data

How the results depend on the processing

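The 8 TRIM genes called in both GB comparisons kept their calls and direction under the 20 alternatives, which include library GC content, added after seeing the data. Without CON3, TRIM56 joined them against CON at a log2FC of 1.01, making 9. No TRIM gene was called in GA vs. CON under any alternative. With the replicate block the counts were 8 against CON, 8 against GA and 0 in GA vs. CON. Same-numbered libraries deviated together with r of −0.031 to 0.077, and differently numbered ones with r of −0.068 to 0.056. These ranges overlap, so the numbers show no clear pairing of the samples, though a weak one could go unseen.

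With GC content as a covariate, limma's adjusted p against CON was 0.0741 for TRIM6, 0.458 for TRIM3, 0.336 for TRIM13, 0.243 for TRIM23 and 0.848 for TRIM31, and the log2FC of TRIM31 was 0.10. Leaving out single libraries also took TRIM31 (without CON1, CON2 or any GB library), TRIM13 (without CON2, GB1 or GB2) and TRIM23 (without GB2) past 0.05 against CON. Over all genes, those with an adjusted p under 0.05 against CON went from 4212 to 1472 with this covariate. Those called in GA vs. CON went from 9 to 0 with it, to 6 without the variance trend, to 5 with the replicate block, to 2 with the filter at 1 FPKM, and to between 3 and 13 without single libraries. Over the alternatives the adjusted p in GA vs. CON was 0.0466 to 0.710 for TRIM5 and 0.0117 to 0.321 for TRIM8. In GB vs. GA the adjusted p stayed under 0.05 in 5 of 20 alternatives for TRIM11, in 9 for TRIM28, in 14 for TRIM35 and TRIM3, in 15 for TRIM24 and in 16 for TRIM47. The cause of these changes was not tested. Genes near 0.5 FPKM rest on few reads.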
